A study of Mus musculus with 16 samples.

Results

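Chil3, Mmp8 and 8 other genes, grouped here under the name granule protein genes (S100a8, S100a9, Lcn2, Ngp, Camp, Ltf, Mpo and Elane), were examined in monocytes of NFAM1-/- and NFAM1+/+ mice. The 10 genes were taken by symbol from a table of 13085 genes, and all 10 were listed and passed the filter on low values in each comparison. Chil3 and Mmp8 were picked because they were called higher in the NFAM1-/- libraries at 6 h with the stimulus, so that comparison is given as a description without a test. The other 8 were added to ask whether granule genes follow Chil3 and Mmp8 from library to library. RNA of cultured monocytes was sequenced in 16 libraries, 2 for each combination of genotype, stimulus and time. The cells were left unstimulated or received IFN-γ plus MegaCD40L, an oligomeric form of CD40 ligand, and were harvested at 6 h or 24 h. The NFAM1-/- line, edited with CRISPR-Cas9 on C57BL/6NTac, lacks exons 2 and 3 of Nfam1, and both genotypes came from crosses of heterozygous mice. The strain tag of every library is C57BL/6 and no age is given. The cell type tag names PBL Monocyte, while the methods describe monocytes enriched by kit from bone marrow. The sequenced cells came from more mice of each genotype than a group has libraries, and which mice went into which library is not stated. Where nothing says that the 2 libraries of a group came from separate mice, p-values measure the spread between libraries, which may be technical.

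Neutrophils and their precursors pack antimicrobial proteins into granules that form in sequence as the cells mature. Primary granules hold myeloperoxidase (Mpo), which makes hypochlorous acid, and neutrophil elastase (Elane), a serine protease. Secondary granules hold lactoferrin (Ltf), which binds iron, the cathelicidin Camp, neutrophilic granule protein (Ngp), and lipocalin 2 (Lcn2), which binds bacterial siderophores, and Mmp8 is the neutrophil collagenase. S100a8 and S100a9 encode the calcium-binding subunits of calprotectin, and Chil3 encodes Ym1, a chitinase-like lectin without chitinase activity that mouse monocytes, macrophages and neutrophil precursors make. Monocytes and neutrophils arise from shared progenitors in the bone marrow, and both lineages carry some of these transcripts. Bulk libraries cannot tell fewer cells of a type from less RNA per cell.

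Values are log2 CPM, the log2 of the reads of a gene relative to the library size as the authors scaled it (CPM), and 48295939 to 88514341 reads fell on the listed genes of a library. Genotypes are those of the titles. Title and genotype tag disagree in 4 of the 8 libraries at 24 h, numbered 44, 46, 56 and 58, and each 24 h genotype value below rests on the titles. The level of Nfam1 itself, which is counted over the whole gene, does not settle which is right, because reads outside the deleted exons remain. At 6 h Nfam1 stood at 432 and 408 CPM in the unstimulated NFAM1+/+ libraries and at 299 and 321 CPM in the NFAM1-/- libraries. With the stimulus at 6 h the 4 libraries overlapped, between 127 and 135 CPM. By the titles at 24 h both NFAM1-/- libraries lay below both NFAM1+/+ libraries, at 391 and 441 against 463 and 495 CPM without and at 201 and 223 against 252 and 271 CPM with the stimulus. By the tags the genotypes overlapped at 24 h. The NFAM1-/- libraries were then at 441 and 463 against 391 and 495 CPM without and at 201 and 271 against 223 and 252 CPM with the stimulus. Monocyte markers were high in every library, with all 13 listed and summing to 9724 to 31812 CPM. Of the 15 neutrophil markers, 4 were not listed, and the 11 listed summed to 265 to 754 CPM. Csf3r was the highest of them, at 207 to 510 CPM, while Ly6g and Cxcr2 stayed at 0.213 to 5.77 CPM.

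The 10 genes lie on 5 chromosomes of GRCm38. S100a8 (chromosome 3, 90668978 to 90670035, plus strand) and S100a9 (90692632 to 90695721, minus strand) are 22.6 kb apart, and Chil3 (106147554 to 106167564, minus strand) lies further along the same chromosome, 33.9 kb from its paralog Chil4. Mmp8 (7558456 to 7568485), Camp (109847379 to 109849617), Ngp (110419747 to 110423012) and Ltf (111019271 to 111042767) are all on chromosome 9. Mpo is on chromosome 11 (87793581 to 87804413), where it overlaps the gene model Gm11505, Elane is on chromosome 10 (79886247 to 79888215) and Lcn2 is on chromosome 2 (32384633 to 32388252). The libraries are not stranded, so reads of Mpo and Gm11505 cannot be told apart where they overlap, and reads shared by Chil3 and Chil4 are uncertain. Chil4 reached at most 9.10 CPM, against at least 29.6 CPM for Chil3.

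The stretch before the start of 5 of these genes is shown because the 5 fall into the patterns that the values below separate: Chil3 and Mmp8 each on its own, and S100a8, S100a9 and Ngp together. The sequences are RefSeq promoters of GRCm38.p6, given 5′ to 3′ on the strand of the gene up to the base before the first annotated start, and capitals mark TTNCNNAA on either strand, a simplified motif of the C/EBP factors that drive granule genes. Chil3 is chr3:106167565-106167814 (minus), Mmp8 is chr9:7558179-7558428 (plus), S100a8 is chr3:90668821-90668977 (plus), S100a9 is chr3:90695722-90695971 (minus) and Ngp is chr9:110419558-110419746 (plus).
Chil3: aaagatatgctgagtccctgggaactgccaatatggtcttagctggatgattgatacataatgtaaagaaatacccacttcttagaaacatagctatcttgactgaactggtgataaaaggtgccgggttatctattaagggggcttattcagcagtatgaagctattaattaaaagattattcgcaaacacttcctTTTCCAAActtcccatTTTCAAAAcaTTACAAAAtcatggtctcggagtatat
Mmp8: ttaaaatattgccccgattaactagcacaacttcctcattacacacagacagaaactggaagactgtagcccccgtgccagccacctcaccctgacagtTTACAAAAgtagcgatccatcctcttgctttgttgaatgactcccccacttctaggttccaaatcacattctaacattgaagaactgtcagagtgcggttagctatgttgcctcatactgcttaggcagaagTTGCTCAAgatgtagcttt
S100a8: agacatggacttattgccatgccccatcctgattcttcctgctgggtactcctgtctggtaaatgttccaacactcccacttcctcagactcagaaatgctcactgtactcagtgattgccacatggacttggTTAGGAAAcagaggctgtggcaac
S100a9: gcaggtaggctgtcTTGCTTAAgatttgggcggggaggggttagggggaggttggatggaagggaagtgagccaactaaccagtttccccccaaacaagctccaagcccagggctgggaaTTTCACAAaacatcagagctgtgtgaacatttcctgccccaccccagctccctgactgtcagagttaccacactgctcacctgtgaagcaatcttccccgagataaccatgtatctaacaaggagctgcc
Ngp: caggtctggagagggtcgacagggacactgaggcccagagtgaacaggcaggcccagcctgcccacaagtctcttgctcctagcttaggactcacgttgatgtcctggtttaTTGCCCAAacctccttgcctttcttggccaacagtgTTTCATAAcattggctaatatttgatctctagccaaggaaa
In the 250 bases before the RefSeq start, this motif was found for 7 of the 10 genes, with 3 matches each in Chil3 and Ngp, against 36.8% of 32851 promoters of the same length. The printed stretches of S100a8 and Ngp are shorter, since they end before an earlier annotated start, and 2 of the 3 matches of Ngp lie in its stretch. Camp, Mpo and Elane held no match. GAGGAA, a short PU.1 motif, was found for 6 of the 10 against 23.3%, and S100a9, Ngp, Camp and Chil3 were without it. A match is a description of letters and not a binding site.

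Per kilobase of exon, Chil3 was the most abundant of the 10 genes at 6 h, at 491 ± 151 CPM per kb (SD, n = 4) without and 623 ± 263 (SD, n = 4) with the stimulus. S100a9 followed at 101 ± 41.4 and 166 ± 86.8 (SD, n = 4 each), below every Chil3 library. At 24 h S100a9 was first, at 412 ± 101 CPM per kb without the stimulus, ahead of S100a8 at 154 ± 27.1, Ngp at 144 ± 31.5 and Chil3 at 108 ± 52.5 (SD, n = 4 each), and the ranges of the last 3 overlapped. Mpo was the lowest of the 10 in each setting but stimulated cells at 24 h, where Elane was lower, and stood at 1.74 ± 0.515 CPM per kb in unstimulated cells at 6 h (SD, n = 4).

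In the 3 settings that it was not chosen from, Chil3 was higher in the libraries titled NFAM1-/- by 0.76 to 1.23 on the log2 scale, and it was called in none of them. Whether libraries of different settings came from the same mice is not stated, so the settings may not be separate observations. In unstimulated cells at 6 h, Chil3 stood at 695 and 503 CPM in NFAM1+/+ libraries 1 and 2 and at 1001 and 1004 CPM in NFAM1-/- libraries 3 and 4. The difference was 0.76 ± 0.135 (log2, SE, n = 2 and 2; adjusted p = 0.0998 by limma), and the groups did not overlap. With the stimulus at 6 h, the setting it was chosen from, Chil3 stood at 633 and 666 CPM in libraries 10 and 26 and at 1298 and 1467 CPM in libraries 11 and 12, a log2 difference of 1.09. Both NFAM1-/- libraries were again above both NFAM1+/+ libraries.

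Mmp8 was also higher in the NFAM1-/- libraries at 6 h. Without the stimulus it stood at 29.7 and 28.8 CPM in NFAM1+/+ and at 42.9 and 43.5 CPM in NFAM1-/- libraries, a log2 difference of 0.56 ± 0.117 (SE, n = 2 and 2; adjusted p = 0.140). With the stimulus, where it was chosen, it stood at 6.61 and 5.55 CPM in libraries 10 and 26 against 12.2 and 12.1 CPM in libraries 11 and 12, a log2 difference of 1.01. Chil3 and Mmp8 lay just past the 2-fold limit there, and the next higher of the 10, Elane, was at 0.46. Ngp, at -1.01, was past that limit in the other direction, with overlapping libraries. Leaving out each library in turn gave 1.00 to 1.18 for Chil3, 0.88 to 1.13 for Mmp8 and -2.22 to 0.20 for Ngp. Genes whose libraries did not overlap made up 42.3% of all genes tested without and 43% with the stimulus at 6 h, higher ones 21.9% and 24%, so a lack of overlap between 2 and 2 libraries is common. Called genes made up 0.0661% of those tested without and 0.033% with the stimulus, and 0 of the 10 were called without it. Before adjustment, 1058 genes in unstimulated cells had a p under 0.05, Chil3 and Mmp8 among them.

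**Figure D1:**
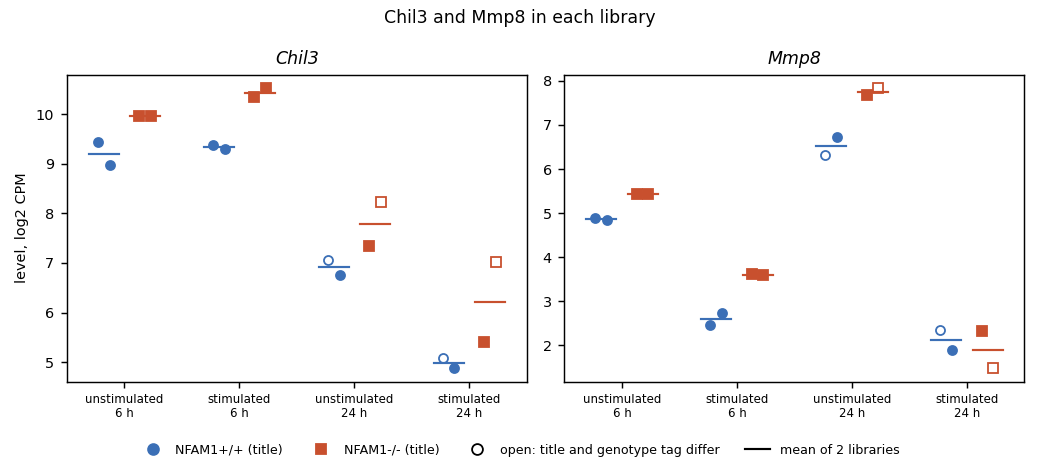
Levels of Chil3 (left) and Mmp8 (right) in log2 CPM for each of the 16 libraries by stimulus and time, blue circles titled NFAM1+/+ and red squares titled NFAM1-/-, open where the genotype tag differs, with a line at the mean of 2 libraries. Chil3 lies higher in the NFAM1-/- titles in all 4 settings, 1 of which it was chosen from, and falls by 24 h, while Mmp8 falls with the stimulus at both times and its genotypes overlap with the stimulus at 24 h.

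At 24 h the genotype difference of Chil3 and Mmp8 depended on which label was used. By the titles and without the stimulus, Chil3 stood at 134 and 108 CPM in NFAM1+/+ libraries 44 and 45 and at 162 and 300.2 CPM in NFAM1-/- libraries 43 and 46, a log2 difference of 0.88 ± 0.436 (SE, n = 2 and 2; adjusted p = 0.471). Mmp8 stood at 79.5 and 105 against 204 and 227 CPM, a difference of 1.24 ± 0.252 (adjusted p = 0.0622). Neither pair of groups overlapped, as was so for 45.5% of all genes tested, and 0 of the 10 genes were called, against 0.222% of all genes tested. Mmp8 passed the threshold under 5 alternatives, with adjusted p between 0.00183 and 0.0365 there.

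With the stimulus at 24 h and by the titles, Chil3 stood at 34.0 and 29.6 CPM in libraries 56 and 57 and at 42.4 and 130 CPM in libraries 55 and 58, a log2 difference of 1.23 ± 0.436 (SE, n = 2 and 2; adjusted p = 0.180). Library 58 set most of that difference, which was 0.42 without it (adjusted p = 0.693). Without library 55 the difference was 2.04 and called, with an adjusted p of 0.00921, and 215 of 12116 genes were called in that fit. Mmp8 overlapped, at 5.11 and 3.72 against 4.99 and 2.81 CPM, a difference of -0.22 ± 0.252 (adjusted p = 0.718). Again 0 of the 10 genes were called, against 0.115% of all genes tested. The genotype effect on Mmp8 was 1.46 lower with than without the stimulus at 24 h, a difference that was not called (SE 0.357, adjusted p = 0.125), and 0 genes of 12164 were called for it by limma.

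By the genotype tags the 24 h differences of Chil3 were -0.29 without and -0.71 with the stimulus, and those of Mmp8 were -0.28 and 0.64, none of them called. The 2 libraries highest in Chil3 within their setting, 46 and 58, are titled NFAM1-/- and tagged wild type. In the 4 libraries whose title and tag agree, 1 a group and so without a test, Chil3 differed by 0.59 without and 0.52 with the stimulus, and Mmp8 by 0.96 and 0.42, all higher in NFAM1-/-. The libraries behind these values are 43 and 45 without and 55 and 57 with the stimulus.

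The other granule genes did not follow Chil3. Each library was set against the mean of the 4 libraries with its stimulus and time, and the sign of that deviation was compared between genes. Mmp8 was on the side of Chil3 in all 8 libraries at 6 h, 4 of which the pair was chosen from, and in 4 of 8 at 24 h. Outside the setting of that choice it was on its side in 8 of 12, where the median over all genes was 6. Outside that setting S100a9, Lcn2 and Camp were on the side of Chil3 in 2 of 12 libraries. Ngp, Mpo and Elane were so in 3, and S100a8 and Ltf in 4. Over all 16 libraries, which include the 4 of the choice, S100a9 was on its side in 3 and Lcn2, Ngp and Camp in 4. S100a8 was so in 5, and Ltf, Mpo and Elane in 6 of 16, where the median over all 12782 genes was 8. With Mmp8 as the reference the counts over all 16 were 7 (S100a9) to 10 (Ltf, Mpo and Elane). Outside the setting of the choice they were 6 (S100a9, Lcn2 and Camp) to 8 (S100a8 and Ltf) of 12, where the median was 6. These counts differed by time. At 6 h they were 2 (S100a8, S100a9 and Ngp) to 5 (Mpo and Elane) of 8, and at 24 h 5 to 7 (S100a8 and Ltf) of 8. With Ngp the counts over all 16 were 15 for S100a9, 14 for Lcn2, Camp and Ltf, 13 for S100a8 and 12 for Mpo and Elane. The deviations within a setting sum to 0, so the 16 signs are not independent and carry no test.

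**Figure D2:**
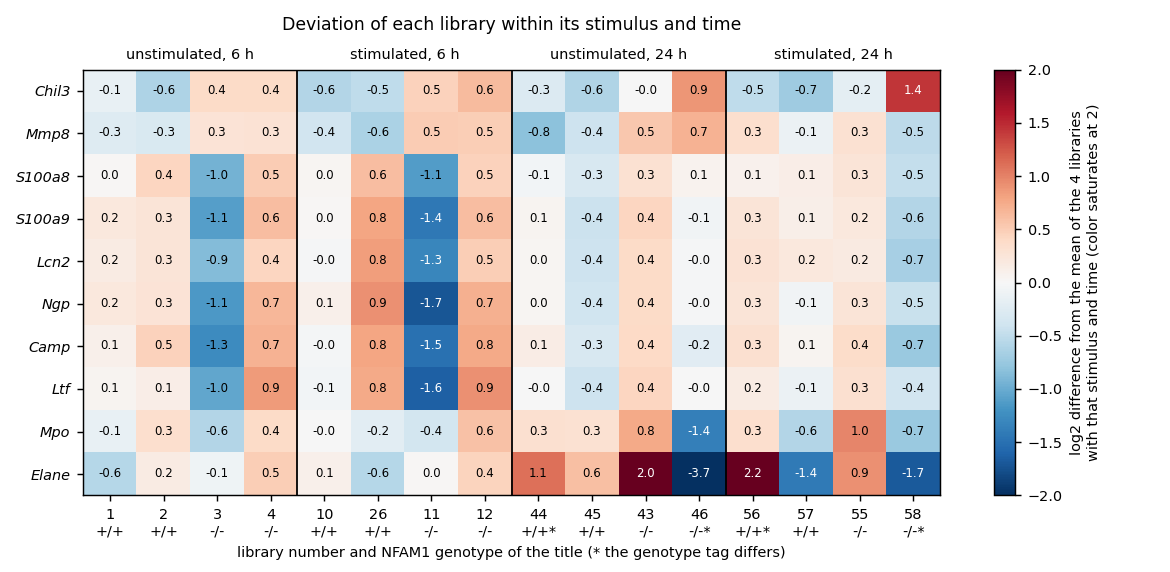
Deviation of each gene (rows) in each library (columns, grouped by stimulus and time, with the genotype of the title below and a star where the tag differs) from the mean of the 4 libraries of that setting, in log2 units. Chil3 and Mmp8 are above 0 in libraries 3 and 11, the same libraries in which S100a8, S100a9, Lcn2, Ngp, Camp and Ltf are lowest, at -0.87 to -1.72.

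At 6 h, 1 NFAM1-/- library in each setting was low in the calprotectin and secondary granule genes, and the other was not. Ngp stood at 35.8, 37.5, 13.997 and 49.4 CPM in the unstimulated libraries 1, 2, 3 and 4. With the stimulus it stood at 56.6, 98.9, 16.04 and 85.9 CPM in libraries 10, 26, 11 and 12. The lowest value was therefore in an NFAM1-/- library both times, while the other NFAM1-/- library was the highest or second highest. Whether libraries 3 and 11 came from the same mice is not stated, so these low values may not be separate observations. S100a9 had the same order, at 56.0, 57.8, 22.6 and 74.1 CPM without and 76.2, 129, 27.6 and 115 CPM with the stimulus. Camp, the cathelicidin precursor, stood at 13.8, 17.6, 5.34 and 20.6 CPM without and 17.4, 31.1, 6.35 and 30.3 CPM with the stimulus. Ltf dropped to 9.42 CPM in library 3 and to 5.70 CPM in library 11, and the other 6 libraries at 6 h held 17.03 to 34.9 CPM. Lcn2 was at 6.01 and 8.74 CPM in these libraries and at 12.3 to 38.5 CPM in the others, and S100a8 was at 12.3 and 17.3 against 24.1 to 57.8 CPM.

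As group means, these 6 genes were lower in NFAM1-/- at 6 h by 0.18 (Ltf) to 0.57 (Camp) without the stimulus and by 0.65 (S100a8) to 1.01 (Ngp) with it, all with overlapping libraries. Without the stimulus their SE ran from 0.539 to 0.773 and their adjusted p from 0.909 to 0.981. Without libraries 3 and 11, a choice made after seeing the data, all 6 turned higher in NFAM1-/-, by 0.22 to 0.76 without and by 0.08 to 0.56 with the stimulus, and none was called without it. Chil3 and Mmp8 kept their size without these libraries, at 0.76 and 0.57 without and 1.18 and 1.00 with the stimulus.

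Markers of eosinophils, basophils and mast cells, and of erythroid cells, were also lowest in these libraries. The 9 markers, all listed, summed to 65.9 CPM in library 3 and 50.1 CPM in library 11, against 115 to 163 CPM in the other 6 libraries at 6 h. Prg2, the eosinophil major basic protein, was at 5.97 and 7.06 CPM against 29.8 to 51.4 CPM, and Epx, eosinophil peroxidase, at 2.08 and 1.37 against 5.34 to 12.7 CPM. Mmp9, the gelatinase of tertiary granules, was at 0.927 and 0.720 against 2.04 to 4.10 CPM, and Retnlg, a neutrophil marker, was at 0.422 and 0.332 against 0.763 to 2.54 CPM. The 4 listed of 6 erythroid markers summed to 3.78 CPM in library 3 and 8.09 CPM in library 11, against 6.32 to 15.5 and 11.9 to 43.2 CPM in the others of their settings. By the titles their median was lower in NFAM1-/- in each setting, at -0.92 and -1.68 without and with the stimulus at 6 h and -1.48 and -1.45 at 24 h, with 0 called. The sum over the 11 listed neutrophil markers did not move with them, at 412 and 428 CPM in libraries 3 and 11 and 342 to 450 CPM in the others. Csf3r alone made up 207 to 265 CPM of it. Ly6g and Cxcr2, low throughout, were lowest of their setting in both libraries. Ly6g was at 0.213 and 0.752 CPM, against 0.359 to 0.617 and 0.776 to 0.895 CPM in the others. Cxcr2 was at 0.422 and 0.558 CPM, against 0.529 to 0.874 and 0.876 to 1.58 CPM. Hdc was also lowest in both, at 1.08 and 78.7 CPM, G0s2 in library 3 only and Padi4 in library 11 only. Csf3r, at 265 and 236 CPM, Cd177, at 80.7 and 91.3 CPM, and Trem1, at 37.9 and 10.7 CPM, were not lowest in either library. Il1r2, at 8.27 and 5.82 CPM, was the highest of its setting in both. The sum of the 13 monocyte markers was the highest of its setting in both libraries, by a small margin. It was 26691 CPM in library 3 against 26496 CPM in library 2, and 13205 CPM in library 11 against 12650 CPM in library 12. Lyz2, which is also in the secondary granule list, made up 17380 CPM of it in library 3 and 4112 CPM in library 11. The part of other cells in the low values of libraries 3 and 11 was not tested.

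Of the primary granule genes, Mpo was also lowest in libraries 3 and 11, and Elane was not. Mpo stood at 5.20, 7.29, 3.82 and 7.52 CPM in unstimulated libraries 1, 2, 3 and 4 at 6 h and at 6.29, 5.45, 4.91 and 9.46 CPM in stimulated libraries 10, 26, 11 and 12. Elane stood at 3.09, 5.16, 4.36 and 6.49 CPM without and at 9.06, 5.65, 8.52 and 11.4 CPM with the stimulus. Without library 3 the unstimulated difference of Mpo turned from -0.20 to 0.29. Their genotype differences were -0.20 and 0.41 without and 0.22 and 0.46 with the stimulus, with overlapping libraries and, without the stimulus, adjusted p of 0.951 and 0.821. Of the other primary granule genes, the serine proteases Prtn3 and Ctsg were higher in both NFAM1-/- libraries in both settings at 6 h, Prtn3 by 0.42 and 0.71 and Ctsg by 0.73 and 0.97, and neither was called. Of the 7 primary granule genes tested, 0 were called without the stimulus, where 0.0661% of all genes were, and their median difference was 0.35 without and 0.28 with the stimulus, where that of all genes was 0.00 and 0.01. Of the 13 secondary granule genes, which include 6 of the 10, 0 were called without the stimulus, and the median was -0.18 without and 0.02 with it.

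**Figure D3:**
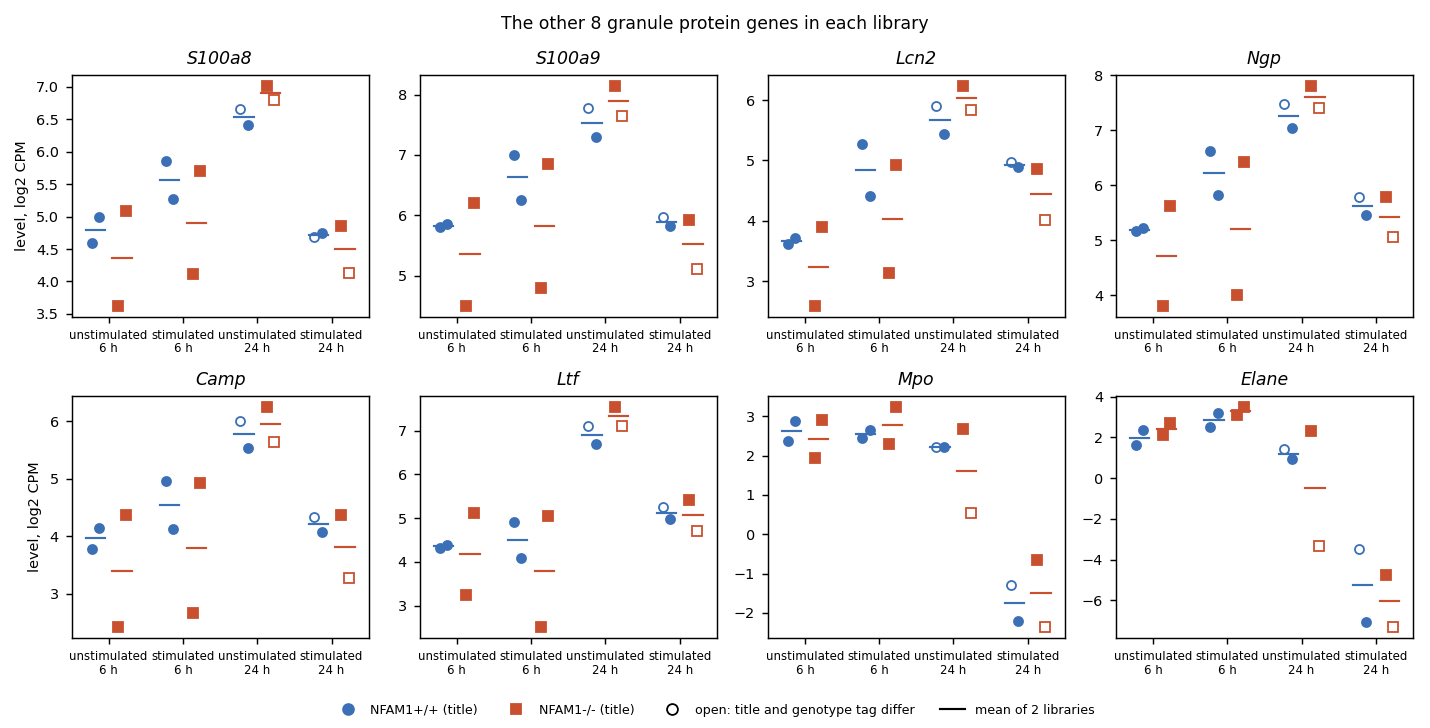
Levels of the other 8 granule protein genes in log2 CPM for each library, with the symbols used for Chil3 and Mmp8. At 6 h 1 square in each setting lies far below the rest for S100a8, S100a9, Lcn2, Ngp, Camp and Ltf, and at 24 h all 8 genes are lower with the stimulus.

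At 24 h the spread of the 6 genes was narrower and their genotype differences were small by the titles. Without the stimulus Ngp stood at 178 and 131 CPM in libraries 44 and 45 and at 225 and 170 CPM in libraries 43 and 46. With it Ngp stood at 55.0 and 43.8 CPM in libraries 56 and 57 and at 54.9 and 33.6 CPM in libraries 55 and 58. The differences of the 6 genes ran from 0.17 (Camp) to 0.43 (Ltf) without and from -0.05 (Ltf) to -0.49 (Lcn2) with the stimulus, with adjusted p of 0.489 to 0.887 and 0.351 to 0.946. Of the 6, S100a8 did not overlap without the stimulus and Lcn2 did not overlap with it, where 45.5% and 48.9% of all genes did not. Library 58, highest in Chil3 with the stimulus, was the lowest of its 4 libraries for all 6.

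**Figure D4:**
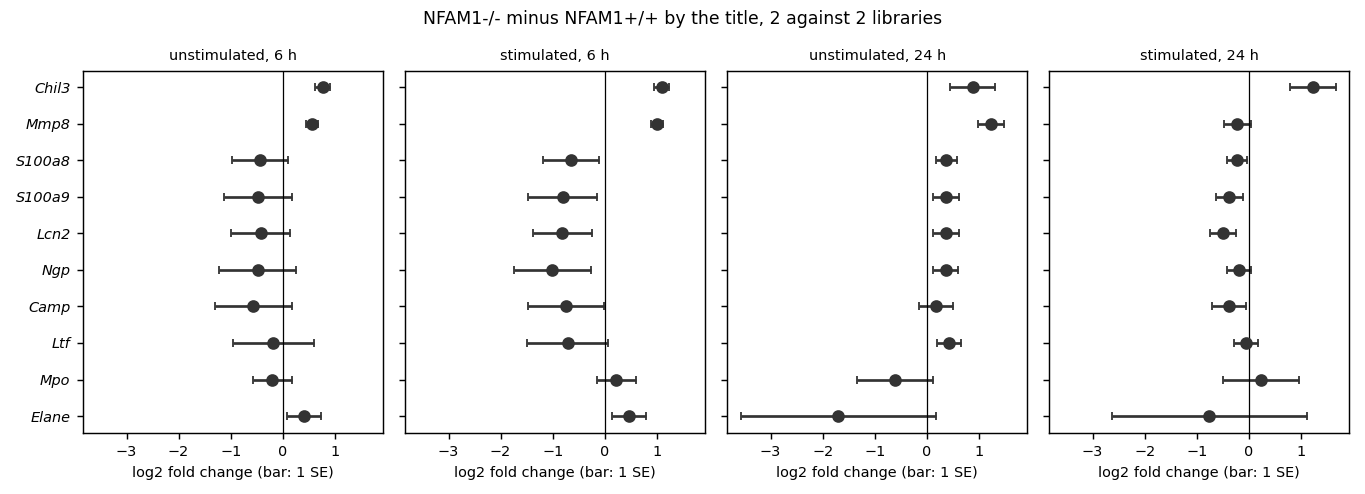
Log2 fold change of NFAM1-/- over NFAM1+/+ by the titles for the 10 genes in each setting, points with bars of 1 SE from the limma fit, 2 against 2 libraries. Chil3 is right of 0 in all 4 settings, 1 of which it was chosen from, and the 6 calprotectin and secondary granule genes change side between settings.

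The effect of the stimulus on these genes differed between 6 h and 24 h. At 6 h, 1 of the 10 was called, Mmp8, which fell by 2.05 on the log2 scale (SE 0.0825, n = 4 and 4; adjusted p = 1.44e-08), from 28.8 to 43.5 CPM in unstimulated to 5.55 to 12.2 CPM in stimulated libraries. The libraries did not overlap, and 40.4% of all genes were lower without overlap. Called genes made up 39.6% of all genes tested, lower ones 20.1%, so the share of the 10 that was called lay below the background. Lcn2 was higher by 0.98 (SE 0.401, adjusted p = 0.0466) and Elane by 0.87 (SE 0.231, adjusted p = 0.00645), both under the 2-fold limit. Chil3 was higher by 0.30 (SE 0.0955, adjusted p = 0.0165), with overlapping libraries. Chil3 and Mmp8 were chosen by their values in these stimulated libraries, so their p-values here are not independent of that choice. In NFAM1+/+ libraries Chil3 stood at 633 and 666 CPM with against 695 and 503 CPM without the stimulus. In NFAM1-/- libraries it stood at 1298 and 1467 against 1001 and 1004 CPM. The sign of the Chil3 change depended on the scaling, at -0.76 after quantile normalization and -0.43 when each library was scaled to its own total. Own-total scaling moved the median of all genes from -0.11 to -0.84 at 6 h, because reads per scaled library size ran from 0.756 to 0.788 without and from 0.970 to 1.32 with the stimulus. S100a8, S100a9, Ngp and Camp differed by 0.49 to 0.76, Mpo by 0.14 and Ltf by -0.13, with adjusted p from 0.139 to 0.833. Leaving out library 4 raised the number called to 6, leaving out library 11 raised it to 5, and leaving out library 2, 10 or 26 raised it to 2.

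At 24 h all 10 genes were called lower with the stimulus, against 33.3% of all genes called and 18.9% called lower. Mmp8 fell the most of the well-read genes, from 79.5 to 227 CPM in unstimulated to 2.81 to 5.11 CPM in stimulated libraries, a drop by 5.12 (SE 0.178, n = 4 and 4; adjusted p = 2.63e-09). S100a8 fell by 2.11 (SE 0.138, adjusted p = 2.9e-07) and S100a9 by 2.01 (SE 0.179, adjusted p = 3.15e-06). S100a9 went from 157 to 284 CPM to 34.6 to 62.4 CPM. Ngp fell by 1.91, Camp by 1.85 and Ltf by 2.03, with adjusted p of 2.44e-06, 3.77e-05 and 1.41e-06, and the range of Ltf went from 104 to 187 CPM to 26.2 to 42.6 CPM. Lcn2, which is also an inflammatory gene, fell least, by 1.17 (SE 0.177, adjusted p = 0.000156), and its fall was under 2-fold in NFAM1+/+ titles alone, at -0.75, and without library 58, at -0.96. Chil3 fell by 1.75 (SE 0.308, adjusted p = 0.00047) and was the only one of the 10 with overlap, since library 58 at 130 CPM lay above library 45 at 108 CPM. Libraries without overlap made up 70.8% of all genes, lower ones 34.5%.

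Mpo was low and Elane close to undetected with the stimulus at 24 h. Mpo stood at 1.46 to 6.34 CPM without and 0.195 to 0.640 CPM with the stimulus, and fell by 3.53 (SE 0.516, adjusted p = 0.000125). Elane was counted at 437, 224, 138 and 8 reads in unstimulated libraries 43, 44, 45 and 46 and at 2, 6, 0 and 0 reads in stimulated libraries 55, 56, 57 and 58. Its fitted fall of 5.99 (SE 1.32, adjusted p = 0.00203) depends on the 0.5 reads added to each count, since 3 of the 4 stimulated libraries held fewer than 3 reads. A count of 0 allows up to 3 reads, 0.0450 CPM in library 57 and 0.0377 CPM in library 58, and these limits cover counting error only.

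**Figure D5:**
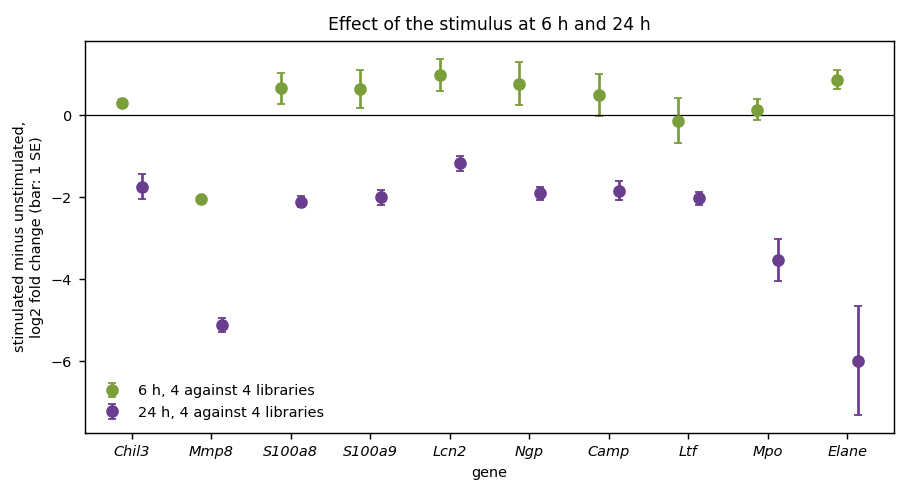
Log2 fold change of stimulated over unstimulated libraries for the 10 genes at 6 h (green) and 24 h (purple), points with bars of 1 SE, 4 against 4 libraries. At 24 h all 10 points lie below 0, from -1.17 (Lcn2) to -5.99 (Elane), and at 6 h Mmp8 and Ltf lie below 0, at -2.05 and -0.13.

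Between 6 h and 24 h without the stimulus, 7 of the 10 rose, Mmp8 by 1.98, S100a8 by 2.15, S100a9 by 2.12, Camp by 2.18, Lcn2 by 2.40, Ngp by 2.48 and Ltf by 2.84 on the log2 scale (SE 0.156 to 0.469, n = 4 and 4; adjusted p 1.03e-07 to 0.00105). Genes called higher made up 13.2% and genes called lower 7.76% of all genes tested. Ltf went from 9.42 to 34.9 CPM at 6 h to 104 to 187 CPM at 24 h, and Lcn2 from 6.01 to 14.8 CPM to 43.6 to 75.7 CPM, both without overlap, where 31.5% of all genes were higher without overlap. Chil3 went the other way and fell by 2.24 (SE 0.269, adjusted p = 6.5e-06), from 503 to 1004 CPM to 108 to 300.2 CPM. Mpo and Elane differed by -0.61 and -1.86, with adjusted p of 0.263 and 0.128. Without library 43 both were called, at -1.14 and -3.28 (adjusted p = 0.0325 and 0.00287). Library 46 held 8 reads of Elane, far below the other unstimulated libraries at 24 h.

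With the stimulus, 4 of the 10 were lower at 24 h than at 6 h and 0 were higher, against 17.2% called lower and 16.5% called higher among all genes. Chil3 fell by 4.29 (SE 0.269, adjusted p = 3.92e-09), Mpo by 4.28 (SE 0.462, adjusted p = 1.14e-06), Mmp8 by 1.09 (SE 0.156, adjusted p = 2.11e-05) and Elane by 8.71 (SE 1.02, adjusted p = 2.76e-06). The 6 h values of Chil3 and Mmp8 are those they were chosen by, so their p-values here are not independent of that choice. The fall of Mmp8 was under 2-fold in NFAM1+/+ titles alone, at -0.47 (adjusted p = 0.0735), and without library 57 or 58, at -0.97 and -0.88. The other 6 differed by -0.63 (S100a8) to 0.95 (Ltf), with adjusted p of 0.0801 to 0.769, so their rise over time in unstimulated culture was not seen in stimulated culture. Without library 11, S100a8 and S100a9 were called lower, at -1.02 and -1.03, and without library 12, Ltf was called higher, at 1.58. Handling that differed between the 6 h and 24 h libraries cannot be told apart from it. The difference between the 2 stimulus effects was called for all 10 genes, where 31.5% of all genes were called for it, and its values are given in the closing section.

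Across the 16 libraries S100a8, S100a9, Camp, Ngp and Lcn2 formed 1 close set, Ltf lay further from them, and the other 4 of the 10 genes stood apart. Likeness was measured as the root mean square of the difference between 2 profiles of log2 CPM after each was centred on its mean, over all 16 libraries. S100a8 was nearest to S100a9 among 12779 genes, at 0.156, and S100a9 exceeded S100a8 by 0.68 to 1.27 log2 CPM in every library. Camp was nearest to S100a9 at 0.172, Ngp to Camp at 0.183 and Lcn2 to Ngp at 0.337. Itgb2l, a beta 2 integrin-like gene of neutrophils, was among the 5 nearest genes of S100a8, S100a9, Lcn2, Ngp, Camp and Ltf. Ltf was nearest to Syne1 at 0.396, with Ngp at 0.509 and S100a8 at 0.673. The 16 libraries share stimulus and time in sets of 4, so likeness describes these libraries and carries no test.

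Chil3 and Mmp8 were far from the set and from each other. Their profiles differed by 2.43, and Mmp8 had rank 10575 among the genes nearest to Chil3. The nearest genes of Chil3 were Cyp39a1 at 0.408, Pola1 at 0.638, Hmgn5 at 0.659, E2f8 at 0.672 and Psd3 at 0.691. Those of Mmp8 were Hgf at 0.440, Flt3 at 0.492, Man2a2 at 0.504, Gcnt1 at 0.505 and Stxbp6 at 0.571. Mpo was nearest to Ear2 at 0.639 and Elane to Prtn3, its neighbour in the same gene cluster, at 1.55. The log2 difference of Mmp8 from Chil3 ran from -6.92 in a stimulated library at 6 h to 0.33 in an unstimulated library at 24 h.

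Related genes were read from lists by family and role, beside 14.4% of all genes called higher and 18.9% called lower with the stimulus at 24 h and 19.5% and 20.1% at 6 h. Of 8 matrix metalloproteinases tested at 24 h, 5 were called lower and 2 higher with the stimulus, with a median of -1.70. Mmp13 stood at 0.311 to 2.00 CPM without the stimulus and at 0 reads in all 4 libraries with it. Mmp12 stood at 5.07 to 11.7 CPM without and at most 0.0906 CPM with the stimulus, and Mmp9 fell by 1.83. Others of the family went the other way. Mmp14, the most abundant, went from 194 to 413 CPM without to 503 to 578 CPM with the stimulus. Mmp25 went from 6.11 to 12.2 CPM to 85.5 to 132 CPM, and Mmp2 from 1.93 to 3.08 CPM to 15.3 to 21.0 CPM. In the S100 family 4 of 8 were called lower and 0 higher. Of 3 chitinase genes tested at 24 h, 1 was called, Chil3 itself, and of 6 tested at 6 h, Chil1 was called higher by 2.86 and Chil4, Chia1 and Chit1 lower. Chil4, the paralog of Chil3, fell by 2.55 with the stimulus at 6 h, where Chil3 was not called. Of 12 regulators of granule genes, 5 were called higher and 3 lower with the stimulus at 24 h. Gfi1, a repressor in granulocyte development, rose by 5.10 and Cebpa fell by 3.68, while Cebpe, the factor of secondary granule genes, was at -0.06 and not called. Of 8 genes for receptors of granule proteins, 2 were called higher and 4 lower, and of 7 protease inhibitors 2 were called higher and 3 lower. Of 9 genes of tertiary and secretory granules, 2 were called higher and 4 lower, with a median of -0.61.

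Markers of other cells moved with the stimulus at 24 h as well, beside the same 14.4% called higher and 18.9% called lower among all genes. Of 13 monocyte markers, 9 were called lower and 3 higher, with a median of -1.84, close to the -2.02 of the 10 granule genes. Csf1r and Lyz2 fell with them, while other abundant monocyte markers rose. Ly6c2 went from 446 to 530 CPM without to 2125 to 2965 CPM with the stimulus, and Irf8 from 249 to 293 CPM to 1155 to 1199 CPM. Of 11 neutrophil markers tested, 7 were called lower and 1 higher, with a median of -1.83. Of 8 markers of eosinophils, basophils and mast cells, 5 were called lower and 0 higher, with a median of -1.74. Of 10 markers of progenitors and cycling cells, 5 were called lower and 2 higher. All 3 erythroid genes tested and both B cell genes tested were called lower, and 1 of 2 T or NK cell genes was. Their part in the fall of the granule genes was not tested.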

How the data were processed

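Gene expression of mouse monocytes was deposited by the authors as log2 CPM for 13085 genes in 16 libraries. Per the labels and methods, libraries were non-stranded and polyA-selected. Before they deposited the values, the authors ran FastQC, then STAR to align, Rsubread to count and edgeR to normalize. The submitters' processing notes name GRCm39 and mm39, and the tool versions and the filter on low genes are not given in the sources used here. The table's own build was not needed, since genes were matched by symbol, and positions are those of GENCODE vM21 on GRCm38 and promoters those of RefSeq on GRCm38.p6 (1 row for each of the 10 genes).

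Undoing the voom form of the deposited log2 values, with its offset of 0.5 reads, gave whole reads (within 0.05) for 100% of values in each library, so reads and depth (48295939 to 88514341) were recovered. At this depth the spread between libraries, with 2 per group, limits precision more than counting does. Libraries were grouped by title. The model was limma 3.58.1 in R 4.3.3 on the log2 values, with a variance trend, after a filter of at least 1 CPM in at least 2 libraries. Genotype and stimulus were fitted on the 8 libraries of a time in 4 groups, and time on all 16 in 8 groups. A call needed a 2-fold change and a p below 0.05 after Benjamini-Hochberg adjustment across every gene in the fit, as in the study. No test is given for the 10 genes between genotypes with the stimulus at 6 h. Other tests of Chil3 and Mmp8 that include those libraries are not independent of how the pair was chosen. The 10 genes and the 16 lists of related genes were chosen with earlier results of these data known. Of each list the counts called are given, with the median for some lists and values for some of the more abundant genes. Values or ranks are also given for genes named after their values were seen (Prtn3, Ctsg, Prg2, Epx, Retnlg, Ly6g, Cxcr2, Il1r2, G0s2, Padi4, Irf8, Mmp2, Mmp9, Mmp12, Mmp13, Mmp25, Chil1, Chil4, Gfi1, Cebpe). Alternatives were no filter, quantile normalization, scaling to each library's own total, log2(CPM + 1), voom weights from the recovered reads, other sets of libraries in the model, the genotype tag, 1 genotype alone and leaving out each library. The fits were tested on simulated data. The number of symbols that appear as dates is 17, and they were not used.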

Additional observations from a re-analysis of the deposited data

Results flagged for a closer look

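For all 10 genes the effect of the stimulus differed between 24 h and 6 h, by the test of that difference in the limma model of all 16 libraries (adjusted p under 0.05 and a difference of at least 2-fold), where 31.5% of 12782 genes were called in the same way. The effect at 24 h minus that at 6 h was -6.85 for Elane, -3.67 for Mpo and -3.07 for Mmp8 on the log2 scale, with adjusted p of 0.00084, 0.000206 and 4.43e-08. It was -2.77 for S100a8 and -2.64 for S100a9, with adjusted p of 0.000135 and 0.00112. For the secondary granule genes it was -2.68 for Ngp, -2.34 for Camp, -2.15 for Lcn2 and -1.90 for Ltf, with adjusted p of 0.00207, 0.00657, 0.00191 and 0.0212. For Chil3 it was -2.04 with an adjusted p of 0.0003. The p-values of Chil3 and Mmp8 are not independent of their choice, which used the stimulated libraries at 6 h. The fitted value of Elane depends on the 0.5 reads added to each count, since its stimulated libraries at 24 h held 0 to 6 reads.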

How the results depend on the processing

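With 2 libraries per group, leaving out 1 library turned the direction of many genotype values that were not called. Depth limits Elane with the stimulus at 24 h, at 0 to 6 reads. The call of all 10 genes as lower with the stimulus at 24 h held under all alternatives but NFAM1+/+ titles alone and leaving out library 58, each of which left 9, and the 8 calls over time in unstimulated culture were 8 to 10 under all alternatives. No paired analysis was run, because which libraries came from the same mice is not stated. The cause of the changes below was not tested.

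Between genotypes with the stimulus at 6 h, the comparison Chil3 and Mmp8 were chosen from and so given without a test, 3 genes differed by 2-fold or more, and 1 did after quantile normalization, with log2(CPM + 1) and without libraries 3 and 11. Between genotypes without the stimulus at 24 h, 1 gene (Mmp8) instead of 0 passed after quantile normalization, with log2(CPM + 1), with voom weights, in the model of 16 libraries and with only the 2 groups compared. For the stimulus at 6 h, 3 genes instead of 1 passed after quantile normalization and 2 without libraries 3 and 11. When libraries were left out in turn, these counts ran from 1 to 7 for genotype with the stimulus at 6 h, from 0 to 1 with it at 24 h and from 1 to 6 for the stimulus at 6 h.

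Directions that turned were all of values not called. Without libraries 3 and 11, a choice made after seeing the data, the genotype difference in unstimulated cells at 6 h became 0.29 for S100a8, 0.38 for S100a9, 0.22 for Lcn2, 0.43 for Ngp, 0.41 for Camp, 0.76 for Ltf and 0.29 for Mpo. By the genotype tag the differences at 24 h became -0.29 for Chil3, -0.28 for Mmp8, 1.07 for Mpo and 3.10 for Elane without the stimulus. With it they became -0.71 for Chil3, 0.64 for Mmp8, 0.34 for S100a8, 0.47 for S100a9, 0.47 for Lcn2, 0.52 for Ngp, 0.69 for Camp, 0.49 for Ltf and 3.09 for Elane. The stimulus effect at 6 h became -0.76 for Chil3 after quantile normalization. With own-total scaling it became -0.43 for Chil3, -0.072 for S100a8, -0.10 for S100a9, -0.24 for Camp and -0.59 for Mpo. In NFAM1+/+ titles alone it was 0.13 for Ltf and -0.073 for Mpo, and without libraries 3 and 11 it was 0.032 for Ltf. Over time with the stimulus, Ngp and Camp became 0.17 and 0.22 with own-total scaling and 0.21 and 0.023 in NFAM1-/- titles alone, and Lcn2 became -0.20 without libraries 3 and 11.

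When libraries were left out in turn, the genotype difference without the stimulus at 6 h ran from -1.17 to 0.29 for S100a8, -1.34 to 0.38 for S100a9, -1.08 to 0.22 for Lcn2, -1.39 to 0.43 for Ngp, -1.54 to 0.41 for Camp, -1.13 to 0.76 for Ltf and -0.69 to 0.29 for Mpo. At 24 h without the stimulus it ran from -0.13 to 0.48 for Camp, -1.68 to 0.44 for Mpo and -4.55 to 1.15 for Elane. With the stimulus at 24 h it ran from -0.64 to 0.19 for Mmp8, -0.59 to 0.14 for S100a8, -0.78 to 0.029 for S100a9, -0.55 to 0.16 for Ngp, -0.94 to 0.17 for Camp, -0.40 to 0.30 for Ltf, -0.62 to 1.10 for Mpo and -2.56 to 1.04 for Elane. The stimulus effect at 6 h ran from -0.073 to 1.05 for Camp, -0.77 to 0.50 for Ltf and -0.11 to 0.38 for Mpo. Over time with the stimulus the range was -0.20 to 0.70 for Lcn2, -0.80 to 0.41 for Ngp and -0.72 to 0.41 for Camp. Of 1148 values of single genes under alternatives, 997 kept their direction and side of the threshold or moved by less than the spread between libraries.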
